A study of Zea mays with 18 samples.

Results

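Glutaredoxin genes of maize roots were taken as the genes whose deposited description contains the word glutaredoxin, which held for 64 of the 47334 genes in the table. Of these, 23 are named as monothiol glutaredoxins, 17 as glutaredoxin-C proteins, and 24 have a glutaredoxin domain but another protein name or none. No description uses the term CC-type, so that class was assigned from the rice protein names (C1, C3, C7, C9, C10, C14, C15, S2, S5 and S9), which gave 19 genes, 6 of them named as monothiol. A gene named putative glutaredoxin-C2 (Zm00001d042187) was left out of that class, as its place was unsure. The study compared 3 genotypes, the wild type in the ND101 background (WT) and 2 CRISPR/Cas9 loss-of-function mutants in that background, zmnrt1.1b (a nitrate transporter gene) and zmnlp3.1 (the gene of a NIN-like transcription factor). Hydroponic seedlings were kept in complete nutrient solution for 10 days, deprived of N for 4 days, and treated for 2 h with either 5 mM KCl or 5 mM KNO3 before roots were taken. Each of the 6 groups (WT KCl, WT KNO3, zmnrt1.1b KCl, zmnrt1.1b KNO3, zmnlp3.1 KCl and zmnlp3.1 KNO3) had 3 libraries labelled as biological replicates. The labels call both mutants knockdowns, and the line of each mutant that was sequenced is not given in the sources used here, so a genotype may stand for a single line.

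Glutaredoxins are small proteins of the thioredoxin fold that use glutathione to reduce disulfides or to remove glutathione from protein cysteines, while monothiol members of the CGFS type bind iron-sulfur clusters. CC-type glutaredoxins occur only in land plants. In Arabidopsis they bind TGA transcription factors, several of their genes are induced by nitrate in roots, and members of the class act as mobile signals of nitrogen demand between shoot and root.

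Expression is given in FPKM, fragments scaled by gene length and library size, so levels can be compared between genes. Between 16955904 and 19116969 reads per library (median 17992374) stood behind the values. A gene was tested when it reached 1 FPKM in at least 3 of the 18 libraries, which held for 26011 genes, and called when the limma p-value adjusted over all of them was under 0.05. Differences are on the log2(FPKM + 0.1) scale, which understates the change of weakly expressed genes. Replicate 2 of zmnrt1.1b KNO3 and replicate 4 of zmnlp3.1 KCl stood apart from the other libraries of their groups, with chi-square values per gene of 21.08 to 30.01 against 5.57 to 15.8 for the remaining pairs. Of 38 green tissue marker genes, 7 were at 0 in every library, and their summed level was 22.7 to 29.7 FPKM in WT KCl, 23.4 to 27.8 in WT KNO3, 67.0 to 72.6 in zmnrt1.1b KCl, 25.1 to 29.6 in zmnrt1.1b KNO3, 15.6 to 19.4 in zmnlp3.1 KCl and 44.6 to 49.4 in zmnlp3.1 KNO3. The 16 root marker genes (Casparian strip membrane proteins and high-affinity nitrate transporters), 2 of them at 0 in every library, summed to between 593 and 5515 FPKM. By group the sums were 1901 to 2150 FPKM in WT KCl, 4421 to 5515 in WT KNO3, 1569 to 1970 in zmnrt1.1b KCl and 2340 to 4431 in zmnrt1.1b KNO3. They were 593 to 2169 in zmnlp3.1 KCl and 1105 to 1885 in zmnlp3.1 KNO3. The list includes nitrate transporters, so its sum may move with treatment and genotype. The sources used here do not link the names of the 2 mutated genes to gene IDs of the table, so their transcripts were not checked.

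The family was expressed very unevenly. Of the 64 genes, 43 had a mean above 1 FPKM, 18 were above 10 FPKM, and 6 had no read in any library. The 5 most abundant genes supplied 43.2% to 56.9% of the summed glutaredoxin FPKM of a library. They were Zm00001d017240 (glutaredoxin-C4, a dithiol enzyme with a chloroplast name, mean 108 FPKM), Zm00001d032546 (monothiol glutaredoxin-S11, 89.0 FPKM), Zm00001d037757 (CC-type glutaredoxin-C7, 83.4 FPKM), Zm00001d003081 (the dithiol glutaredoxin-C6, 72.7 FPKM) and Zm00001d011543 (CC-type monothiol glutaredoxin-S5, 46.3 FPKM). Zm00001d029202, whose protein resembles the uncharacterized Arabidopsis protein At5g39865, was the most abundant gene with a glutaredoxin domain only, at 31.2 FPKM.

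The 19 CC-type genes spanned this whole range. All 19 consist of a single exon, against 42 of the 64 family members. Only 9 of them reached the minimum for testing, namely all 6 of the monothiol-named genes (S2, S5 and S9) and 3 of the 13 glutaredoxin-C genes (C7 and both C3 genes). The 9 genes named C1, C10, C14 and C15 had 31 reads between them in all 18 libraries, and 5 of these 9 had none. A cluster of 4 members on chromosome 10 (25661970 to 25872710 in B73 RefGen_v4) had 5 reads in all. In all, 21 members were not tested, 6 monothiol, 10 glutaredoxin-C and 5 domain-only genes, and their highest value in any library was 1.27 FPKM.

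**Figure D1:**
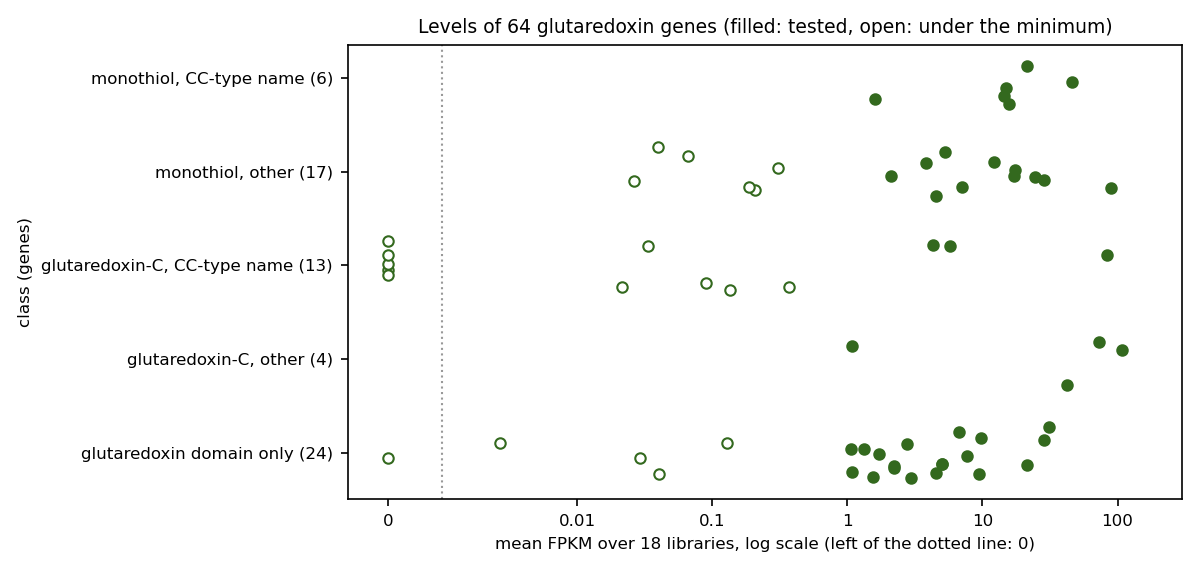
Mean FPKM over the 18 libraries (horizontal axis, log scale, with genes without a read placed left of the dotted line) for each of the 64 glutaredoxin genes, by class; filled points are the 43 genes tested. CC-type glutaredoxin-C genes fall into 3 genes above 1 FPKM and 10 below the minimum, while all 6 CC-type genes with a monothiol name were tested.

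Summed over all 64 genes, glutaredoxin transcripts came to 836 ± 39.5 FPKM (SD, n = 3) in WT KCl and 974 ± 15.5 in WT KNO3. In zmnrt1.1b the sums were 824 ± 76.1 under KCl and 820 ± 57.2 under KNO3. The corresponding sums in zmnlp3.1 were 677 ± 46.0 and 622 ± 41.6. The ranges of WT KCl and WT KNO3 did not overlap, and the 2 treatments of zmnrt1.1b were alike in their means. The sums are given as a description and were not tested.

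The first comparison asked which glutaredoxin genes respond to nitrate in WT. Of the 43 members tested, 4 rose and 4 fell after 2 h of KNO3. These are 9.3% each way, against 6.43% of all tested genes called higher and 6.42% called lower. Among the 9 CC-type genes, 3 rose (both abundant S5 genes and a C3 gene) and 1 fell (C7). Their median difference was −0.29, beside −0.003 over all genes tested.

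The S5 gene Zm00001d011543 (chromosome 8, 154129779 to 154130258, single exon) stood at 50.5, 53.3 and 37.4 FPKM in WT KCl and at 101, 116 and 103 FPKM in WT KNO3. The second S5 gene, Zm00001d039011 (chromosome 6, 168696882 to 168697316, single exon), read 20.2, 20.1 and 24.6 FPKM in WT KCl and 38.4, 45.7 and 37.9 FPKM in WT KNO3. For both genes every KNO3 library lay above every KCl library, and the means rose from 47.1 ± 8.45 to 107 ± 8.19 FPKM and from 21.6 ± 2.56 to 40.7 ± 4.40 FPKM. The log2 differences were 1.19 ± 0.22 (SE, limma adjusted p = 0.00185) and 0.91 ± 0.20 (adjusted p = 0.0068). The remaining S5 gene, Zm00001d043932, had a mean of 1.59 FPKM, and its WT difference (95% interval −2.62 to 0.62) did not pass the test. Genes that carry the same name may share reads, which was not tested because no sequences were used here.

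Zm00001d032546 (monothiol glutaredoxin-S11; chromosome 1, 230134398 to 230139442) combines a thioredoxin domain with a glutaredoxin domain, as the long CGFS glutaredoxins of plants do. It had 52.0, 51.9 and 60.2 FPKM in WT KCl and 138, 164 and 130 FPKM in WT KNO3. The KNO3 libraries thus lay well above all KCl libraries, and the difference of 1.39 ± 0.24 (SE, adjusted p = 0.000887) was the largest among the 4 WT increases that passed the test. The CC-type C3 gene Zm00001d016593 (chromosome 5, 168904060 to 168904452) rose from 1.22, 1.41 and 1.40 FPKM to 3.04, 3.60 and 3.06 FPKM, a difference of 1.20 ± 0.27 (adjusted p = 0.00657). These are low values, and the call was lost when the recovered reads were analysed with voom (adjusted p = 0.118).

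Decreases in WT were led in abundance by the CC-type C7 gene Zm00001d037757 (chromosome 6, 136409991 to 136410359). Its levels were 137, 123 and 123 FPKM in WT KCl and 89.0, 64.2 and 78.7 FPKM in WT KNO3. The groups were separate, and the difference was −0.73 ± 0.16 (adjusted p = 0.00575). The other genes that fell were 3 domain-only members. Zm00001d043006, described as like a cysteine-rich fly protein with a glutaredoxin domain, went from 8.05 ± 0.554 to 4.62 ± 0.132 FPKM (−0.79 ± 0.19, adjusted p = 0.012). Zm00001d037215, which pairs the glutaredoxin domain with DEP and DUF547 domains, went from 5.98 ± 0.172 to 4.196 ± 0.316 FPKM (−0.50 ± 0.15, adjusted p = 0.0304). Zm00001d027853, an At5g39865-like gene, went from 1.70 ± 0.505 to 0.483 ± 0.149 FPKM (−1.62 ± 0.44, adjusted p = 0.0234). The last 2 calls were each lost when any of several single WT libraries was left out, with adjusted p up to 0.11 without WT KNO3 replicate 3 for Zm00001d037215 and up to 0.0979 without the same library for Zm00001d027853.

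**Figure D2:**
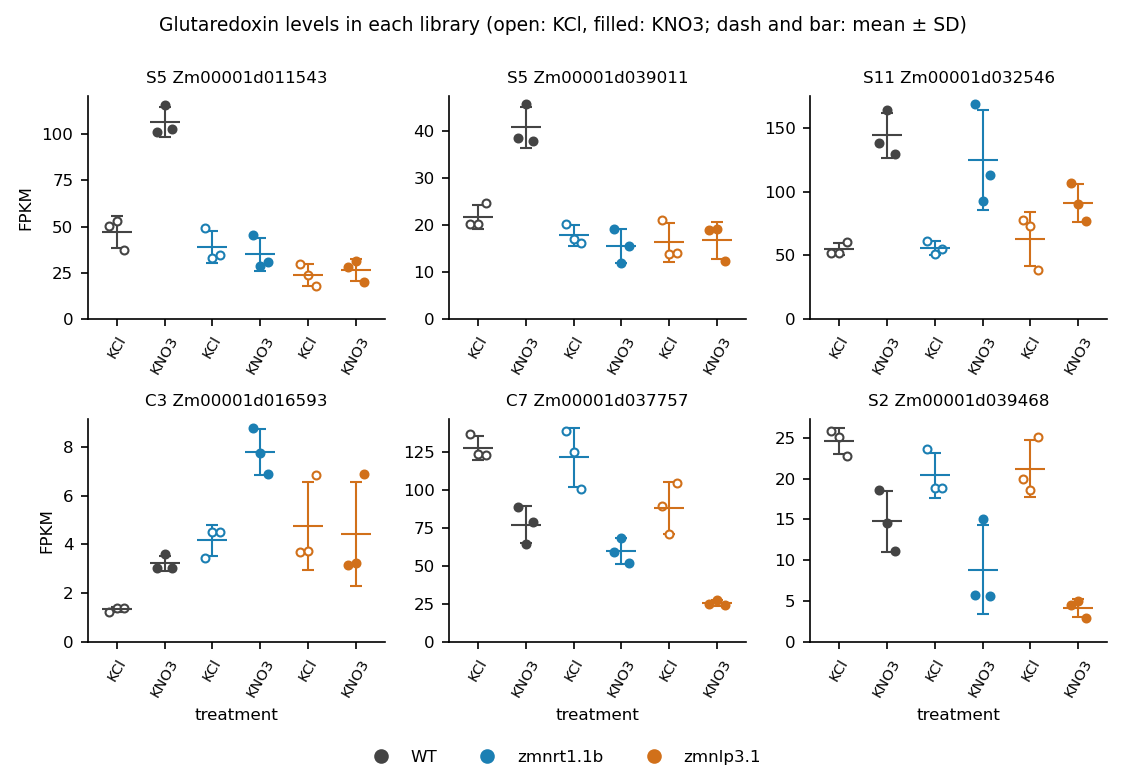
FPKM of 6 glutaredoxin genes (vertical axes, from 0) in each of the 18 libraries by treatment and genotype; points are libraries, and dashes with bars are means ± SD of 3 libraries. Both S5 genes shown are highest in WT KNO3, and C7 and the S2 gene Zm00001d039468 stand lowest in zmnlp3.1 KNO3.

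The next comparison asked how the mutants respond. In zmnrt1.1b 3 members rose and 3 fell (6.98% each, against 6.81% and 8.35% of all genes tested). In zmnlp3.1 2 rose and 5 fell (4.65% and 11.6%, against 6.88% and 7.14%). The response of WT and that of a mutant can differ in these counts without differing by a test, so the difference itself was tested.

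In zmnrt1.1b the S5 gene Zm00001d011543 read 49.1, 33.2 and 34.8 FPKM under KCl and 45.3, 28.8 and 30.7 FPKM under KNO3. The treatments overlapped, and the response of −0.17 (95% interval −0.64 to 0.31) did not pass the test. The response was smaller than in WT by a log2 difference of −1.36 ± 0.32 (adjusted p = 0.0446), 1 of 2 member calls in this comparison, where 1 was higher and 1 lower (2.33% each) against 0.542% and 0.969% of all genes tested. That call was near the threshold, and it held in 6 of the 18 analyses that left out 1 library. In those that lost it the adjusted p ranged up to 0.129, without zmnrt1.1b KCl replicate 2. The second S5 gene, Zm00001d039011, had 20.2, 16.9 and 16.1 FPKM under KCl and 19.02, 11.9 and 15.5 FPKM under KNO3. Its difference of response, −1.12 ± 0.29, missed the threshold (adjusted p = 0.0645).

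Both abundant S5 genes did not pass the response test in zmnlp3.1 either. Zm00001d011543 read 29.7, 23.5 and 17.9 FPKM under KCl and 27.9, 31.3 and 20.04 FPKM under KNO3, and Zm00001d039011 read 20.98, 13.8 and 13.9 FPKM and 18.8, 18.99 and 12.2 FPKM. The treatments overlapped for both genes. Compared with WT the responses differed by −1.03 (95% interval −1.70 to −0.36, adjusted p = 0.0723) and by −0.87 (−1.49 to −0.26, adjusted p = 0.0943). Leaving out zmnlp3.1 KCl replicate 4, 1 of the libraries that stood apart, gave −1.22 and an adjusted p of 0.034 for the first gene. Between the mutants the responses of these S5 genes differed by 0.33 (−0.34 to 1.0) and 0.25 (−0.36 to 0.86), and neither passed the test.

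The strongest decrease called under nitrate in zmnlp3.1 was that of the CC-type S2 gene Zm00001d039468 (chromosome 3, 5118949 to 5119466). It had 25.8, 25.1 and 22.8 FPKM in WT KCl and 18.6, 14.5 and 11.1 FPKM in WT KNO3, where its difference of −0.76 did not pass the test (adjusted p = 0.123). The levels in zmnrt1.1b were 23.6, 18.8 and 18.8 FPKM under KCl and 5.81, 15.1 and 5.65 FPKM under KNO3, and those in zmnlp3.1 were 19.9, 18.6 and 25.1 FPKM and 4.57, 5.01 and 2.88 FPKM. Under KCl the 3 genotypes overlapped, whereas under KNO3 all zmnlp3.1 libraries lay below all others. The responses were −1.35 ± 0.30 in zmnrt1.1b (adjusted p = 0.00816) and −2.35 ± 0.30 in zmnlp3.1 (adjusted p = 0.000207). In zmnlp3.1 the decrease exceeded that of WT by −1.59 ± 0.43 (adjusted p = 0.0434). That call held in 5 of 18 analyses without 1 library, where the highest adjusted p was 0.113, without zmnlp3.1 KNO3 replicate 4. It held in 4 of the 9 other alternatives.

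C7 followed the same order with a firmer test. In zmnrt1.1b Zm00001d037757 read 139, 125 and 101 FPKM under KCl and 59.0, 68.7 and 51.9 FPKM under KNO3, and in zmnlp3.1 it read 89.3, 70.8 and 105 FPKM and 25.2, 27.8 and 24.4 FPKM. Every zmnlp3.1 KNO3 library lay below every other library of the series. The responses were −1.02 ± 0.16 (adjusted p = 0.000849) and −1.75 ± 0.16 (adjusted p = 1.5e-05), and the latter exceeded the WT response by −1.02 ± 0.23 (adjusted p = 0.0187, held in 16 of 18 analyses without 1 library). The highest p among these was 0.054, without WT KNO3 replicate 1. C7 and the S2 gene were the 2 members called in this difference, 0 higher and 2 lower (4.65%), against 2.21% and 2.68% of all genes tested. The count was sensitive to the libraries that stood apart and became 10, with 2 higher and 8 lower, when both were left out. Scaling by the recovered totals gave 1 higher and 1 lower. All 9 CC-type genes tested had an estimate below 0 in this difference, with a median of −0.92 beside 0.01 over all genes tested. These estimates rest on the same libraries, so they are not separate observations. The putative C2 gene Zm00001d042187, which was not assigned to the class, had an estimate of 0.54 (95% interval −2.54 to 3.63).

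S11 and C3 responded in zmnrt1.1b as well. Zm00001d032546 read 61.6, 51.0 and 55.0 FPKM under KCl and 169, 92.6 and 113 FPKM under KNO3 (1.12 ± 0.24, adjusted p = 0.00615), and in zmnlp3.1 it read 77.5, 72.7 and 38.3 FPKM and 107, 90.6 and 76.8 FPKM (0.59 ± 0.24, adjusted p = 0.111). The 2 treatments of zmnlp3.1 overlapped, with 76.8 FPKM the lowest KNO3 value and 77.5 FPKM the highest KCl value. Replicate 4 of zmnlp3.1 KCl decided this comparison, since without it the response was smaller than in WT by −1.12 (adjusted p = 0.02576) and with it by −0.80 (adjusted p = 0.185). The C3 gene Zm00001d016593 rose in zmnrt1.1b from 4.16 ± 0.623 to 7.81 ± 0.946 FPKM (0.89 ± 0.27, adjusted p = 0.035, held in 13 of 18 analyses without 1 library and up to 0.143 without zmnrt1.1b KCl replicate 2) and stood at 4.75 ± 1.80 and 4.42 ± 2.14 FPKM in zmnlp3.1 (−0.14, interval −0.71 to 0.43). Its response in zmnlp3.1 differed from that in WT by −1.34, which missed the threshold (adjusted p = 0.0528).

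Zm00001d037215, the DEP and DUF547 gene, was called in opposite directions. It fell in WT and rose in zmnrt1.1b from 6.68, 7.85 and 9.09 FPKM to 13.9, 9.72 and 9.05 FPKM (0.45 ± 0.15, adjusted p = 0.0478), where the highest KNO3 value came from replicate 2, which stood apart. The zmnrt1.1b increase was near the threshold and held in 3 of 18 analyses without 1 library (adjusted p = 0.164 without the library that stood apart, and up to 0.212 without zmnrt1.1b KCl replicate 2), while the WT decrease held in 13 of 18. The difference of response was 0.95 ± 0.21 (adjusted p = 0.0333) and held in 11 of 18 analyses without 1 library, with the highest adjusted p, 0.103, without zmnrt1.1b KCl replicate 2. In zmnlp3.1 the gene read 7.81 ± 0.220 and 9.10 ± 0.261 FPKM.

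Other responses called in a mutant came without a called difference from WT. The dithiol gene C6, Zm00001d003081, rose in zmnlp3.1 from 57.0 ± 2.29 to 81.7 ± 4.98 FPKM (0.52 ± 0.11, adjusted p = 0.00665). A second S11 gene, Zm00001d011577, fell there from 4.49 ± 1.87 to 1.75 ± 0.503 FPKM (−1.25 ± 0.28, adjusted p = 0.00951), a call lost without zmnlp3.1 KCl replicate 1 (adjusted p = 0.05016) or zmnlp3.1 KNO3 replicate 4 (0.0521). The At5g39865-like gene Zm00001d018827 fell in zmnrt1.1b from 13.4 ± 1.02 to 8.63 ± 0.0628 FPKM (−0.63 ± 0.18, adjusted p = 0.0255), a call that held in 13 of 18 analyses without 1 library (adjusted p up to 0.104, without zmnrt1.1b KCl replicate 2). Zm00001d003779, an At3g28850-like gene singled out after its values were seen, rose in zmnlp3.1 from 1.49 ± 0.214 to 3.70 ± 0.622 FPKM (1.25 ± 0.27, adjusted p = 0.00714). The domain-only gene Zm00001d027853, which also fell in WT, fell in zmnlp3.1 (−1.91 ± 0.44, adjusted p = 0.0106), as did Zm00001d029202 (−0.52 ± 0.17, adjusted p = 0.0487, held in 5 of 18 analyses without 1 library). Between the mutants no difference of response was called among the members by limma, where 1.38% and 0.411% of all genes tested were called higher and lower. Of the 43 members, 8 had an unadjusted p under 0.05 (14.1% of all genes tested did), and the other analyses called at most 1.

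**Figure D3:**
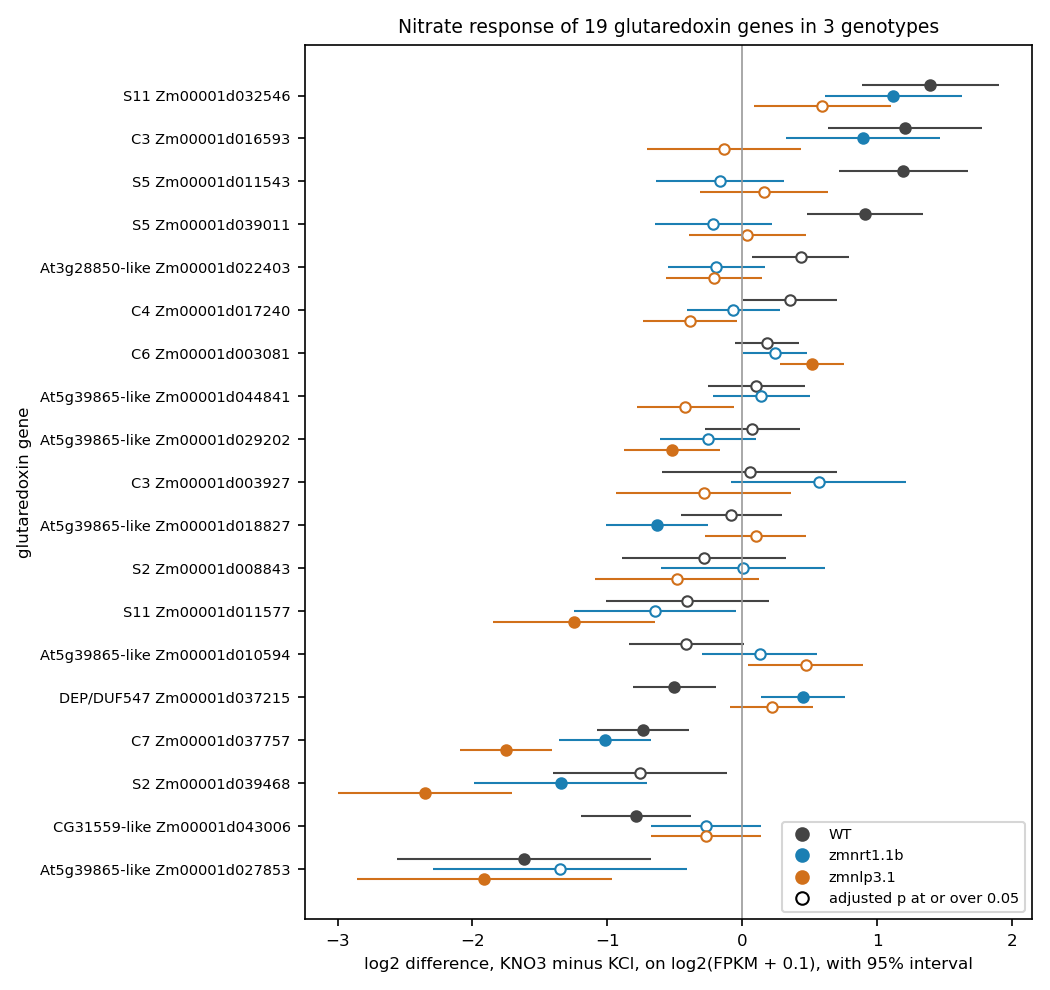
Log2 difference between KNO3 and KCl (horizontal axis, points with 95% intervals) for the 19 named glutaredoxin genes, by genotype; filled points passed an adjusted p of 0.05. Both S5 genes have a filled WT point near 1 and open mutant points near 0, and for C7 and the S2 gene Zm00001d039468 the zmnlp3.1 point is the lowest of the 3 genotypes.

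The genotypes were then compared within each treatment. These comparisons share the WT libraries, so their values are given side by side only. Under KNO3, 13 of the 43 members were lower in zmnlp3.1 than in WT and 3 were higher (30.2% and 6.98%), where 16.7% and 14.7% of all genes tested were called. Among the CC-type genes 5 of 9 were lower and 0 higher, with a median difference of −1.31 beside −0.004 over all genes tested. Scaling by the recovered totals moved the median of all genes in this comparison by 0.137 and gave 12 lower and 6 higher members. Under KCl 8 members were lower and 2 higher in zmnlp3.1 (18.6% and 4.65%, against 6.81% and 2.58% of all genes tested), and the same scaling gave 5 lower and 4 higher. The KCl count fell from 10 to 5 without zmnlp3.1 KCl replicate 4 or without WT KCl replicate 1, and to 6 without WT KCl replicate 2 or without both libraries that stood apart.

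In zmnrt1.1b 5 members were higher and 4 lower than in WT under KNO3 (11.6% and 9.3%, against 7.9% and 9.66% of all genes tested). Under KCl 2 were higher and 0 lower (4.65%, against 2.06% and 1.85%), a count that was 1 without WT KCl replicate 3 or without zmnrt1.1b KCl replicate 2. Both were the CC-type C3 genes. The green tissue markers were at their highest in zmnrt1.1b KCl, and their part in these differences was not tested.

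Under KNO3 both abundant S5 genes were lower in each mutant than in WT. Zm00001d011543 differed by −1.64 ± 0.22 in zmnrt1.1b (adjusted p = 0.000169) and by −2.03 ± 0.22 in zmnlp3.1 (adjusted p = 1.39e-05), and Zm00001d039011 by −1.41 ± 0.20 (adjusted p = 0.000267) and −1.31 ± 0.20 (adjusted p = 0.00028). All 6 mutant KNO3 libraries lay below all WT KNO3 libraries for both genes, and these 4 calls held in each alternative analysis run. The weak S5 gene Zm00001d043932 differed under KNO3 by 1.21 in zmnrt1.1b (95% interval −0.42 to 2.83) and −0.90 in zmnlp3.1 (−2.52 to 0.72). Neither difference passed the test, though its zmnrt1.1b libraries all lay above the WT libraries of the same treatment. Under KCl only Zm00001d011543 in zmnlp3.1 was called, at −1.0 ± 0.22 (adjusted p = 0.0107, or 0.056 without zmnlp3.1 KCl replicate 4). S2 and C7 under KNO3 were lower in zmnlp3.1 by −1.81 ± 0.30 (adjusted p = 0.000461) and −1.57 ± 0.16 (adjusted p = 7.23e-06). C7 was already lower there under KCl, by −0.55 ± 0.16 (adjusted p = 0.0418), a call that held in 10 of 18 analyses without 1 library (adjusted p up to 0.165, without zmnlp3.1 KCl replicate 3) and was lost with voom, with a replicate block (adjusted p = 0.0628) and with scaling by the recovered totals.

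The other S2 gene, Zm00001d008843 (chromosome 8, 22462215 to 22462577), was lower in zmnlp3.1 under both treatments. It had 26.8, 16.01 and 15.03 FPKM in WT KCl and 18.9, 10.7 and 17.5 FPKM in WT KNO3. In zmnrt1.1b it had 21.1, 20.5 and 13.8 FPKM and 13.8, 20.3 and 21.4 FPKM, and in zmnlp3.1 6.10, 9.56 and 9.998 FPKM and 5.19, 8.02 and 5.03 FPKM. All zmnlp3.1 libraries lay below all WT libraries, while those of zmnrt1.1b overlapped with WT. The differences in zmnlp3.1 were −1.15 ± 0.29 under KCl (adjusted p = 0.0196) and −1.35 ± 0.29 under KNO3 (adjusted p = 0.00249). The call under KCl was lost without WT KCl replicate 1 (adjusted p = 0.101).

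C4, the most abundant glutaredoxin gene (Zm00001d017240, chromosome 5, 190054668 to 190058017), was also lower in zmnlp3.1. Its levels were 117, 111 and 103 FPKM in WT KCl and 143, 134 and 146 FPKM in WT KNO3, against 89.4, 80.3 and 69.4 FPKM and 78.1, 54.4 and 52.2 FPKM in zmnlp3.1. The genotypes were separate under each treatment, and the difference under KNO3 was −1.22 ± 0.16 (adjusted p = 7.89e-05). Under KCl the difference of −0.48 ± 0.16 missed the threshold (adjusted p = 0.0796). In zmnrt1.1b the gene had 151, 120 and 122 FPKM and 99.5, 136 and 143 FPKM. These lay above WT under KCl and overlapped with WT under KNO3, and neither difference passed the test (0.24, interval −0.11 to 0.59, and −0.18, interval −0.53 to 0.17).

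The C3 genes went the other way. Zm00001d003927 (chromosome 2, 68997259 to 68997672) had 3.34, 2.67 and 1.997 FPKM in WT KCl and 3.02, 3.00 and 2.21 FPKM in WT KNO3. In zmnrt1.1b it had 8.17, 6.78 and 6.93 FPKM and 11.2, 11.4 and 9.87 FPKM, and in zmnlp3.1 4.96, 4.32 and 8.17 FPKM and 2.73, 4.35 and 8.01 FPKM. All zmnrt1.1b libraries were above all WT libraries, whereas zmnlp3.1 KNO3 overlapped with WT. The gene was higher in zmnrt1.1b by 1.44 ± 0.31 under KCl (adjusted p = 0.0136) and 1.95 ± 0.31 under KNO3 (adjusted p = 0.000481). It was higher in zmnlp3.1 by 1.07 ± 0.31 under KCl (adjusted p = 0.0382, or 0.173 without zmnlp3.1 KCl replicate 4). The zmnlp3.1 call held in 15 of 18 analyses without 1 library and in 4 of the 9 other alternatives. The other C3 gene, Zm00001d016593, was higher by 1.55 ± 0.27 in zmnrt1.1b KCl (adjusted p = 0.00352), 1.69 ± 0.27 in zmnlp3.1 KCl (adjusted p = 0.00138) and 1.25 ± 0.27 in zmnrt1.1b KNO3 (adjusted p = 0.00487).

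**Figure D4:**
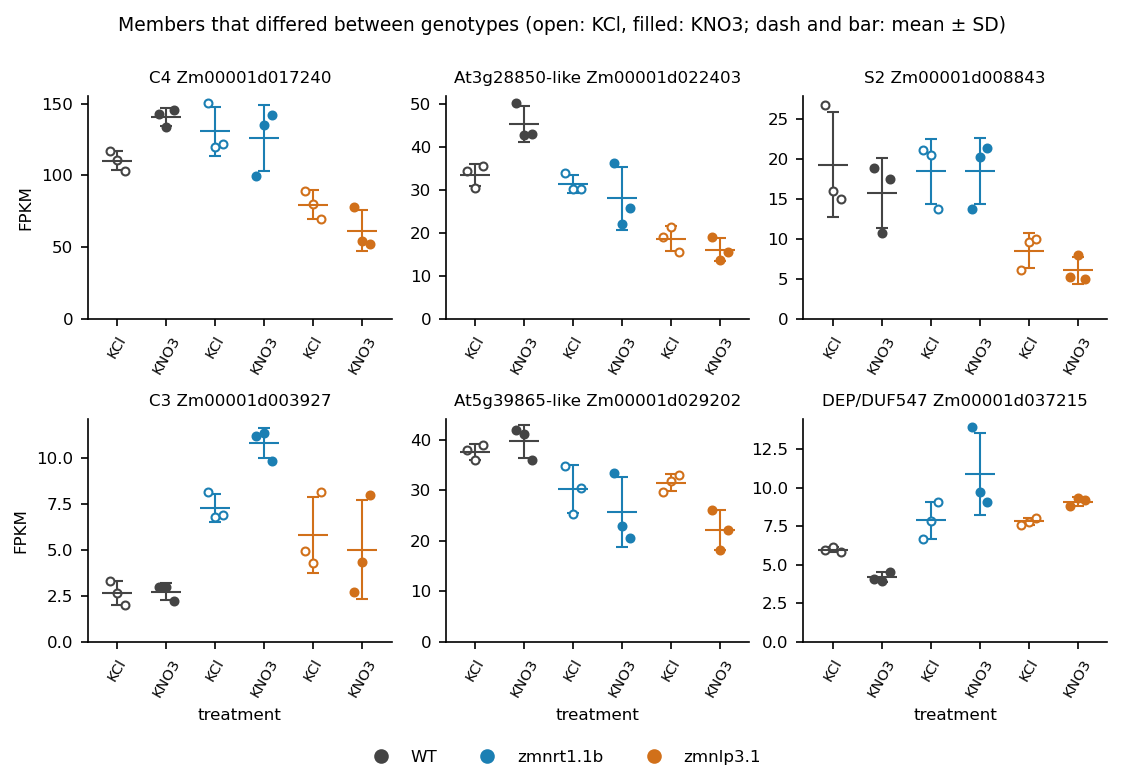
FPKM of 6 further glutaredoxin genes (vertical axes, from 0) in each of the 18 libraries by treatment and genotype; points are libraries, and dashes with bars are means ± SD of 3 libraries. C4, the At3g28850-like gene and the S2 gene Zm00001d008843 are lowest in zmnlp3.1, and the C3 gene Zm00001d003927 is highest in zmnrt1.1b KNO3.

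Among the domain-only genes, the At3g28850-like Zm00001d022403 (chromosome 7, 176841474 to 176842085) had 34.3, 30.5 and 35.5 FPKM in WT KCl and 50.0, 42.7 and 42.9 FPKM in WT KNO3, against 18.97, 21.3 and 15.5 FPKM and 19.1, 13.6 and 15.6 FPKM in zmnlp3.1. The zmnlp3.1 libraries all lay below the WT libraries, with differences of −0.85 ± 0.17 under KCl (adjusted p = 0.00544) and −1.49 ± 0.17 under KNO3 (adjusted p = 1.76e-05). In zmnrt1.1b it was lower under KNO3 alone (−0.72 ± 0.17, adjusted p = 0.00844). Zm00001d029202 was lower under KNO3 in zmnrt1.1b (−0.65 ± 0.17, adjusted p = 0.0135, up to 0.0597 without zmnrt1.1b KNO3 replicate 5) and in zmnlp3.1 (−0.85 ± 0.17, adjusted p = 0.0015), and the At5g39865-like Zm00001d044841 in zmnlp3.1 (−0.91 ± 0.17, adjusted p = 0.00103). Zm00001d018827 was lower in zmnlp3.1 under KCl (−0.95 ± 0.18, adjusted p = 0.00368) and KNO3 (−0.77 ± 0.18, adjusted p = 0.00408). In zmnrt1.1b KNO3, 3 of 19 domain-only genes were higher and 2 lower (15.8% and 10.5%, against 7.9% and 9.66% of all genes tested). In zmnlp3.1 KNO3, 2 were higher and 5 lower (10.5% and 26.3%, against 14.7% and 16.7%). Zm00001d037215 was higher under KNO3 in zmnrt1.1b (1.33 ± 0.15, adjusted p = 2.85e-05) and zmnlp3.1 (1.1 ± 0.15, adjusted p = 6.84e-05), with all 6 mutant libraries above all WT libraries. The At5g39865-like Zm00001d010594 was higher in both as well (0.67 ± 0.20, adjusted p = 0.0314, and 0.90 ± 0.20, adjusted p = 0.00345), and Zm00001d027853 was higher in zmnrt1.1b (1.85 ± 0.44, adjusted p = 0.00935). For Zm00001d010594 the zmnrt1.1b call held in 14 of 18 analyses without 1 library, with an adjusted p of up to 0.135 without WT KNO3 replicate 3.

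Of the S11 genes, Zm00001d011577 was lower in zmnlp3.1 KNO3 (−1.26 ± 0.28, adjusted p = 0.00362), and Zm00001d032546 was lower by −0.66 ± 0.24 (adjusted p = 0.0449), a call that held in 6 of the 18 analyses without 1 library. The remaining calls, named after their values were seen, were those of C8 (Zm00001d046900, 0.38, adjusted p = 0.0204) and the DEP and DUF547 gene Zm00001d032669 (−0.97, adjusted p = 0.0138) in zmnlp3.1 KNO3, and in zmnlp3.1 KCl those of another S11 gene (Zm00001d013927, −0.43, adjusted p = 0.0399), Zm00001d052252 (−0.58, adjusted p = 0.0204) and Zm00001d003779 (−0.97, adjusted p = 0.0334).

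**Figure D5:**
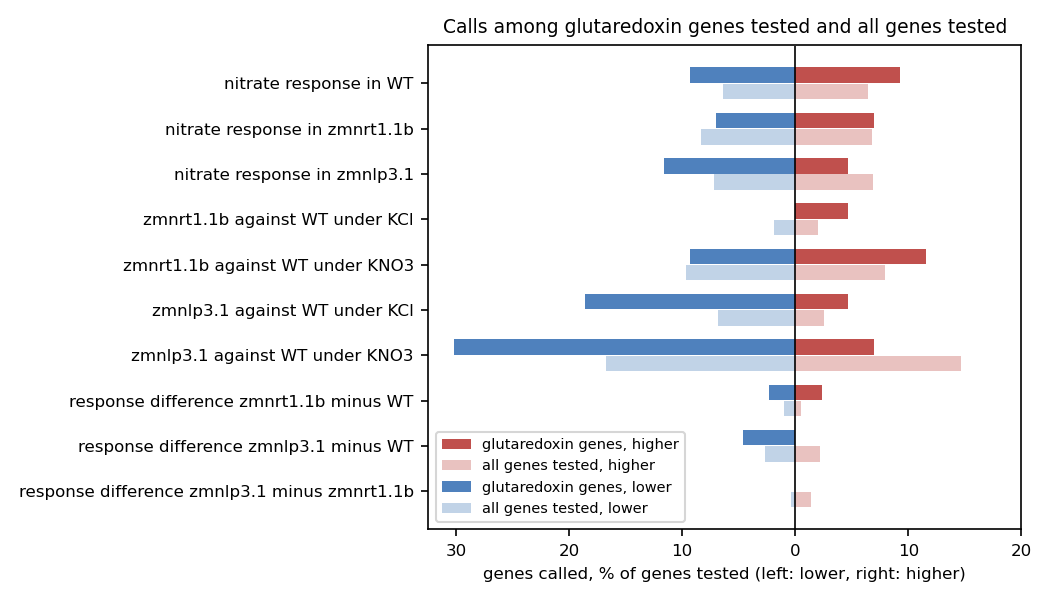
Percent of genes called higher (right) and lower (left) in each of the 10 comparisons, for the 43 glutaredoxin genes (solid bars) and all 26011 genes tested (pale bars). The largest bar is 30.2% of members lower in zmnlp3.1 under KNO3, where 16.7% of all genes were lower.

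In all, 24 members were called in at least 1 of the 10 comparisons and 19 tested members in none. The 19 were 2 CC-type genes (S9 and the weak S5 gene), C2, 8 further monothiol genes and 8 domain-only genes. The monothiol genes among them include those with organelle names, such as S4 (Zm00001d008736, mitochondrial name, mean 24.7 FPKM), S7 (Zm00001d034857, chloroplast name, 17 FPKM) and both S12 genes (5.26 and 4.55 FPKM). A change below the reach of 3 libraries per group cannot be told from none here. In a simulation of the WT comparison over 26011 genes, 62 of 100 changes of 2-fold and 91 of 100 of 4-fold were called. The simulation assumed the same spread for every gene and held no libraries that stood apart. Its rates are therefore not the power of the test for these members.

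Genes around the glutaredoxin system were counted from lists made by description. The alternative analyses covered glutaredoxin members only, so how far the calls on list genes depend on single libraries or settings was not tested. Genes of both steps of glutathione synthesis rose under nitrate in WT, glutamate-cysteine ligase A (Zm00001d032808, 1.08 ± 0.17, adjusted p = 0.0005) and glutathione synthetase (Zm00001d041710, 0.69 ± 0.10, adjusted p = 0.000291), while glutathione hydrolase 1 (Zm00001d003446), which degrades glutathione, fell (−1.11 ± 0.15, adjusted p = 7.99e-05). These were the calls among 14 tested genes of glutathione synthesis and recycling. Their shares, 14.3% higher and 7.14% lower, stand beside 6.43% and 6.42% of all genes tested. In zmnlp3.1 the response of this synthetase was smaller than in WT (−0.55 ± 0.15, adjusted p = 0.0414), and that of the hydrolase was less negative (difference 0.84 ± 0.21, adjusted p = 0.0285). A second glutathione synthetase gene (Zm00001d007661) fell in zmnrt1.1b (−0.47 ± 0.12, adjusted p = 0.0201), and its response there was below that of WT by −0.78 ± 0.18 (adjusted p = 0.0394). Of 20 genes of ascorbate recycling, 4 rose and 3 fell in WT (20% and 15%), led by monodehydroascorbate reductase 5 (Zm00001d024633, 2.85 ± 0.22), which rose in the mutants too (by 2.09 and 1.77, in the order zmnrt1.1b, zmnlp3.1). The thioredoxin family had 4 genes higher and 4 lower of 79 (5.06% each), below the share of all genes. The peroxiredoxins and glutathione peroxidases had 1 and 1 of 10, and the genes of iron-sulfur assembly and BolA proteins 4 and 2 of 28 (14.3% and 7.14%). Among the glutathione S-transferases 1 of 71 was higher and 13 were lower (1.41% and 18.3%).

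TGA factors are the partners of CC-type glutaredoxins in Arabidopsis. Of 19 TGA genes tested, 2 rose and 1 fell in WT, TGAL5 (Zm00001d038296, 1.74 ± 0.27, adjusted p = 0.000406), TGAL6 (Zm00001d026398, 0.79 ± 0.13, adjusted p = 0.000803) and TGA2.2 (Zm00001d022542, −0.39 ± 0.09, adjusted p = 0.00867). In zmnlp3.1 0 rose and 5 fell (26.3%, against 7.14% of all genes tested), and the responses of TGAL5 and TGAL6 were below those of WT by −1.48 ± 0.38 (adjusted p = 0.0376) and −1.26 ± 0.19 (adjusted p = 0.00235). Under KNO3, 11 of the 19 were lower in zmnlp3.1 than in WT and 1 was higher (57.9% and 5.26%, against 16.7% and 14.7% of all genes tested), with a median of −0.50 beside −0.004 over all genes tested. In zmnrt1.1b 7 of 19 were lower and 0 higher under KNO3 (36.8%, against 9.66% of all genes tested called lower). Such shifts were not limited to the TGA list. Under KNO3, 12 of 28 iron-sulfur and BolA genes were lower in zmnlp3.1 and 1 higher (42.9% and 3.57%). In zmnrt1.1b KNO3, 18 of 71 glutathione S-transferases were higher and 6 lower (25.4% and 8.45%, against 7.9% and 9.66% of all genes). The thioredoxin family showed no such shift in zmnlp3.1 KNO3, with 11 higher and 10 lower of 79. These shares, 13.9% and 12.7%, were below the 14.7% and 16.7% of all genes tested.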

How the data were processed

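Poly-A RNA of maize roots was sequenced by the authors as 150 bp paired-end reads, filtered with fastp, aligned with HISAT2 (2.0.5) to B73 RefGen_v4 and, per the submitters' processing notes, assembled with StringTie (1.3.3b). The authors deposited FPKM, in which the fragments of a gene are divided by its length and by a measure of library size. Use of strand is not given in the sources used here, so overlapping and antisense genes may share reads. All 18 columns were used. Multiplied by gene length, every value was a whole multiple of a step to within 0.01 reads, which gave the reads per library. The FPKM denominators were 0.925 to 1.109 times those totals. The depth limits genes with few reads, and the spread between 3 libraries limits the rest.

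The test was that of limma (3.58.1, R 4.3.3), for genes that reached 1 FPKM in 3 or more libraries, on log2(FPKM + 0.1), with 1 mean per group over all 18 libraries, a variance trend, two-sided p-values and Benjamini-Hochberg adjustment over all genes tested, for 10 contrasts. Python 3.11.15, pandas 2.3.3 and matplotlib 3.10.9 were used. The prefix gene_ of some IDs is left out of the text. Members and lists were chosen with earlier results of these data known. Named genes were all members called in the WT response, the 10 smallest p-values among other members called between genotypes or in a difference of response, the 5 most abundant members and the most abundant of each class. The planned grouping by active-site letters and the promoter search were not run, since no sequences were at hand.

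Alternatives tried included a larger pseudocount (1 FPKM), a lower minimum (0.1 FPKM) or none, median ratio rescaling, the replicate number as a block, voom on the recovered reads, only the groups compared and each library left out. Scaling by recovered totals and leaving out both libraries that stood apart were chosen after seeing the data. The deviations of same-numbered libraries had correlations of −0.07 to 0.271, so the numbers were not taken as pairs.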

Additional observations from a re-analysis of the deposited data

Results flagged for a closer look

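The nitrate response of 4 glutaredoxin genes differed between a mutant and WT by the test of the difference itself (limma, adjusted over all genes tested). The response of the CC-type S5 gene Zm00001d011543 was smaller in zmnrt1.1b by −1.36 on the log2 scale, with WT libraries at 37.4 to 53.3 FPKM under KCl and 101 to 116 FPKM under KNO3. That of the DEP and DUF547 gene Zm00001d037215 was larger in zmnrt1.1b by 0.95, where the gene was called higher (held in 3 of 18 analyses without 1 library) while it was called lower in WT (held in 13 of 18). The responses of C7 (Zm00001d037757) and of the S2 gene Zm00001d039468 were more negative in zmnlp3.1 by −1.02 and −1.59. Leaving out each of the 18 libraries in turn kept these calls of a difference 6, 11, 16 and 5 times, in this order. The 9 other alternatives kept them 7, 8, 9 and 4 times, in the same order.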

How the results depend on the processing

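Of 56 calls on named genes, 33 were kept under every alternative run, and of 1512 alternative values 1349 kept the call, 163 lost it and 0 changed sign. The largest losses from a setting were 12 calls with models of only the groups compared, which have fewer samples. Median ratio rescaling lost 0, since the deposited values already had equal factors. No called result changed sign, and these counts of called members moved by over 1.5 times. Leaving out both libraries that stood apart gave 11 in the zmnlp3.1 response, 6 in zmnlp3.1 against WT under KCl, and 4, 10 and 1 in the differences of response for zmnrt1.1b, zmnlp3.1 and between the mutants. Models of only the groups compared gave 4 in the zmnlp3.1 response, 4 in zmnrt1.1b under KCl and 3 in zmnlp3.1 under KCl. With a replicate block the difference of response for zmnlp3.1 had 4 called members, as with voom on the recovered reads, and the block lost 5 of the named calls. The cause was not tested.

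Without 1 library the counts ranged from 6 to 9 (main 8) for the WT response, 3 to 7 (6) for zmnrt1.1b and 5 to 9 (7) for zmnlp3.1. Against WT they ranged from 1 to 3 (2) for zmnrt1.1b under KCl, 7 to 10 (9) under KNO3, 5 to 12 (10) for zmnlp3.1 under KCl and 13 to 18 (16) under KNO3. The differences of response ranged from 0 to 3 (2) for zmnrt1.1b, 0 to 6 (2) for zmnlp3.1 and 0 to 1 (0) between the mutants. The zmnrt1.1b response had 3 without zmnrt1.1b KCl replicate 2 or 3 or KNO3 replicate 4. Its difference from WT had 0 without any WT KCl library, WT KNO3 replicate 1 or 3, or zmnrt1.1b KCl replicate 2 or 3. That of zmnlp3.1 had 6 without zmnrt1.1b KNO3 replicate 2 or zmnlp3.1 KCl replicate 4, and 0 without WT KNO3 replicate 1. Where an arm has 2 libraries left, its spread rests on that of the other groups.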
